A study of Drosophila melanogaster with 23 samples.

Results

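Chromatin immunoprecipitation with sequencing (ChIP-seq) located the protein Mzfp1, the product of CG1603, on the chromosomes of adult fruit flies. The comparison given here sets flies with an HA-tagged Mzfp1 that lacks its main CP190-binding region (Δ42-HA) against flies with the tagged full-length protein (wt-HA), both precipitated with an antibody against HA. The Δ42-HA list held 6216 regions and the wt-HA list 574, together 6790 of the 27155 regions in all lists of the series. Of these, 6192 Δ42-HA and 553 wt-HA regions lay on the assembled chromosomes of the dm6 build, and the 24 and 21 on unplaced scaffolds were set aside. A region counted as found in the other list when both shared at least 1 bp.

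Each group had 2 libraries of flies 2 to 3 days old, and 1 peak list made from both, so no spread between replicates could be given and no test between the groups was possible. The genotypes are labelled U:Mzfp1delta42/TM6,Tb and U:Mzfp1WT/TM6,Tb. Both transgenes were driven by the Ubi-p63E promoter, which is active in most tissues, carried a 3xHA tag, and were placed in the same chromosomal site, 86F8, with the yellow gene (y) as marker. By the study's description the flies of both groups also carried the CG1603attP deletion over the CyO balancer. Hence 1 normal copy of CG1603 remained, and untagged protein was present beside the tagged one in both groups. The anti-HA antibody precipitates only the tagged form. The study's blots showed less Δ42-HA than wt-HA protein at like transcript levels, and the Δ42-HA transgene did not rescue flies without CG1603. The deletion still left weak contact with CP190, so these flies are a model of reduced rather than absent binding. Whole flies were used, so a region reported here is an average over all tissues. The study rated both anti-HA lists as moderately reproducible.

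Mzfp1 has a zinc finger near its start, 2 MADF domains and a cluster of zinc fingers at its end, which binds DNA. MADF domains are protein or DNA contact domains of insect transcription factors such as Adf1. Zinc finger proteins of this kind are called architectural proteins, since they bring shared partners to insulators and to the promoters of housekeeping genes. CP190 is such a partner: it does not read long sequence motifs by itself and is recruited to open promoters and domain borders by DNA-binding proteins that include CTCF, Su(Hw), Pita and M1BP. The comparison asks where the tagged protein is found on chromosomes once its main contact with CP190 is removed.

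The bases around the summits of the regions that carry the comparison are given first, from the plus strand of the RefSeq Release 6 (dm6) genome, 5′ to 3′. The RpL23A, Hr39, CG1677, Utx and brk sites and the intergenic site near lncRNA:CR45737 are among the highest of the kept, lost and new sets, and the others are the highest regions that hold a given 8-letter word within their set or summit class, with 1 chromosome arm and words in untranslated exons left out. These word examples were picked after the word counts were seen. Capitals mark the words described below, on either strand, and bases in untranslated exon parts were left off.
New, intron of CG1677 near brk, chrX:7301082-7301181: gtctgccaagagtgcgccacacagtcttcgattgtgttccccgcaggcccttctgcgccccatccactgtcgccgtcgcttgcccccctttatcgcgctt
New, intergenic near lncRNA:CR45737, chr3L:3395237-3395336: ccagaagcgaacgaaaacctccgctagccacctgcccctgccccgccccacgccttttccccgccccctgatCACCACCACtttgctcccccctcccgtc
New, coding exon of Socs36E, chr2L:18141831-18141890: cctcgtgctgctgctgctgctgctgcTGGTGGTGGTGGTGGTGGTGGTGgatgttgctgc
New, intron of wupA, chrX:18112732-18112791: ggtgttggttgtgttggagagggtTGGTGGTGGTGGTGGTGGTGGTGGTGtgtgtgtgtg
New and in an untagged list, promoter of Nrg, chrX:8517269-8517328: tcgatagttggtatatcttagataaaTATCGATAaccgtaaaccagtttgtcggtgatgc
Kept, promoter of RpL23A, chr3L:1668734-1668833: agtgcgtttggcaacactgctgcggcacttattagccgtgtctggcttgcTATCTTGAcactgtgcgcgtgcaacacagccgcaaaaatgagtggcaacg
Kept, promoter of Hr39, chr2L:21237092-21237191: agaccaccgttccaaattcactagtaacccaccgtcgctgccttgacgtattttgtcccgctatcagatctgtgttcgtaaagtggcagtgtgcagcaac
Kept, promoter of CG1677, chrX:7286211-7286310: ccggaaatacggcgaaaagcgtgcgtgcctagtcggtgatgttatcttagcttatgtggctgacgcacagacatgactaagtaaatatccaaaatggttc
Kept, promoter of Prosalpha6, chr2L:10221309-10221350: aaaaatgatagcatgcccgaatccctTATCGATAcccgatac
Kept, promoter of CG33494, chr3R:25495255-25495314: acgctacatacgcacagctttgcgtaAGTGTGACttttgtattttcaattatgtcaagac
Kept, promoter of CG14411, chrX:14832599-14832646: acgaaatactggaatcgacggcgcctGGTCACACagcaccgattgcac
Lost, promoter of Utx, chr2L:10277552-10277625: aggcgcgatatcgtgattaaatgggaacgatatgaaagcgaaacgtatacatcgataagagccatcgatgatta
Lost, upstream word near Dpm3, chr3R:13403220-13403279: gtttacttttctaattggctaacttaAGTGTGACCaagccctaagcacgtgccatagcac
Lost, downstream word near Dpm3, chr3R:13403315-13403374: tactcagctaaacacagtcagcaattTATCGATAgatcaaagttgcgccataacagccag
The Socs36E and wupA sites hold runs of the triplet ACC on the minus strand. The other kept and lost sites hold short words, whereas the printed stretches at Hr39, Utx and both CG1677 sites hold none of them. Stretches at Dus2, bigmax, Idh3a, Der-1, Ssl2 and Pld3, also among the highest of their sets, are not printed and hold none either. The printed sites thus do not show how common the words are.

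Most wt-HA regions were present in the Δ42-HA list, whereas most Δ42-HA regions had no counterpart in the wt-HA list. Of the 6192 Δ42-HA regions, 421 (6.80%, 95% Wilson interval 6.20 to 7.45) shared bases with a wt-HA region, and 5771 were new. Of the 553 wt-HA regions, 435 (78.7%, 75.1 to 81.9) were kept and 118 lost. These shares define the sets and are not findings about them, and all intervals cover counting error only, with neighbouring regions not independent. The match was mostly one to one, with 430 kept wt-HA regions overlapped by 1 Δ42-HA region and 5 overlapped by 2. Conversely, 15 Δ42-HA regions covered 2 wt-HA regions and 2 covered 3.

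New regions were not near misses of wt-HA regions. Their median gap to the closest wt-HA region was 95144 bp, and 136 of 5771 (2.36%) lay within 1000 bp of one. Lost regions lay closer to the other list, with a median gap of 5970 bp over the 116 on chromosomes with Δ42-HA regions, and 19 of 118 (16.1%) within 1000 bp. The lists differ more than 10-fold in length, which by itself makes the gaps unequal.

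**Figure D1:**
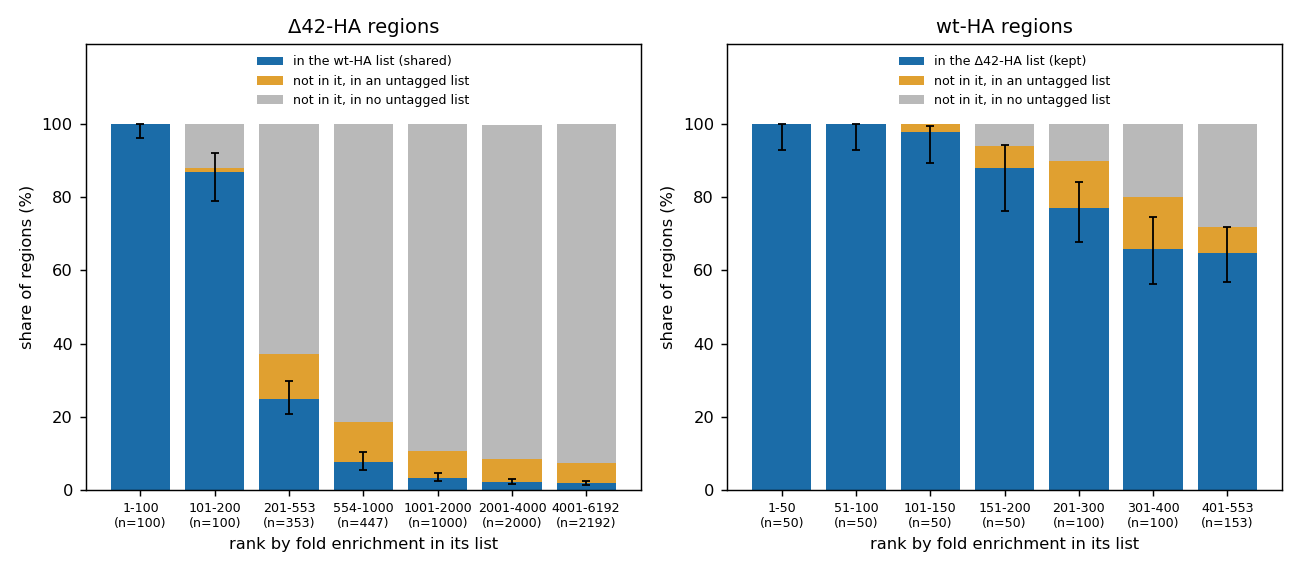
Share of regions (%) found in the other anti-HA list by rank of fold enrichment, for Δ42-HA regions (left) and wt-HA regions (right). Blue bars with 95% Wilson intervals are regions in the other list, orange bars are regions outside it that a list of untagged y1w1118 adults or embryos holds, and grey bars are the rest; the shared share is 24.9% at Δ42-HA ranks 201 to 553, whereas the kept share is 64.7% in the last wt-HA bin.

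The shared regions sat at the top of both lists. Ranks were taken by fold enrichment of ChIP over control, the signal column of the peak caller. All of the first 100 Δ42-HA regions, with a fold enrichment of at least 25.2, were in the wt-HA list, as were 87.0% of ranks 101 to 200. The share was 24.9% at ranks 201 to 553 and 1.69% past rank 4000. In the wt-HA list, all of the first 100 regions were kept, and 98.0% of ranks 101 to 150 and 88.0% of ranks 151 to 200 were. The kept share was 77.0% at ranks 201 to 300 and 64.7% past rank 400. The highest new region ranked 119 of 6192, and the highest lost region ranked 142 of 553. The first 100 regions of either list thus held none without a partner.

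When the Δ42-HA list was cut to its own first 553 regions (fold enrichment of at least 4.41), 275 (49.7%, 45.6 to 53.9) were shared and 278 were new. At this equal length 292 of the 553 wt-HA regions (52.8%, 48.6 to 56.9) were kept. At this cut, about equal numbers of Δ42-HA regions thus did and did not have a wt-HA partner. The split rests on where the list was cut, since 100% of ranks 1 to 100 but 24.9% of ranks 201 to 553 were shared.

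The strongest shared regions were promoters, with summits at nearly the same base in both lists. Summits of kept regions were a median of 18 bp apart, and 317 of 435 (72.9%) at most 50 bp apart. RpL23A, a protein of the large ribosomal subunit, had a fold enrichment of 167 in Δ42-HA and 225 in wt-HA flies, with summits 8 bp apart. RNASEK, a ribonuclease gene in pericentromeric 2R, had 141 in Δ42-HA and 155 in wt-HA flies, and Hr39, a nuclear hormone receptor gene, had 130 in Δ42-HA and 146 in wt-HA flies. These 3 promoters thus had a fold enrichment of the same order in both lists. The promoter shared by CG1677 and CG2059 on X was the first of the Δ42-HA list at 332 and the fourth of the wt-HA list at 143. Pc, which encodes the chromodomain subunit of Polycomb repressive complexes, had 143 in Δ42-HA and 112 in wt-HA flies. The other kept regions among the 10 highest of wt-HA lay at RpL5, at Maf1, a repressor of RNA polymerase III, and at CG3107, vlc and CG6195, with fold enrichments of 72.8 to 108 in Δ42-HA and 80.8 to 97.3 in wt-HA flies. All 10 overlapped a promoter window, 200 bp up- and downstream of a gene start, and were in the y1w1118 and embryo lists of untagged flies.

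**Figure D2:**
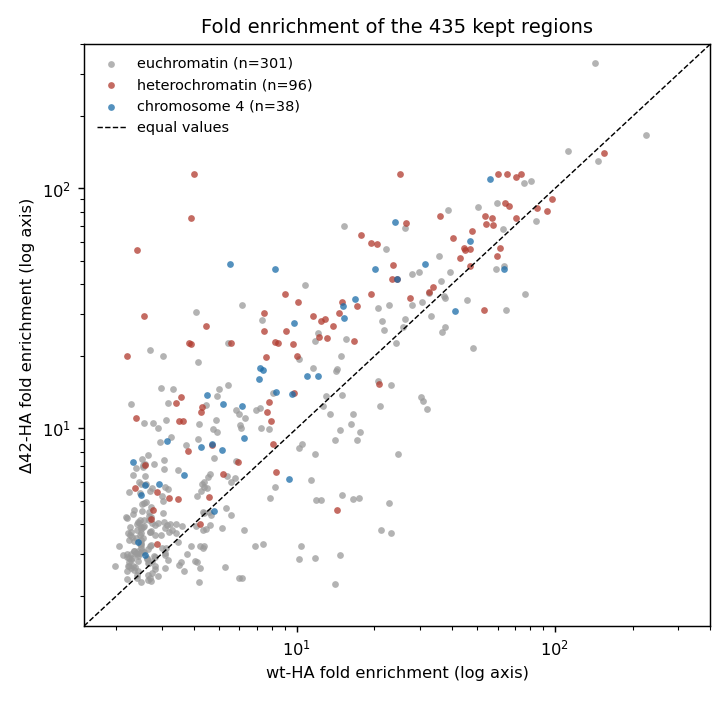
Fold enrichment of the 435 kept regions in Δ42-HA (vertical, log axis) against wt-HA (horizontal, log axis), with 1 point a region, coloured by euchromatin, heterochromatin and chromosome 4; the dashed line marks equal values. The order is alike at the top, and 328 of 435 points (75.4%) lie above the line.

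Fold enrichment in the Δ42-HA list was above that in the wt-HA list at 328 of the 435 kept regions (75.4%), with a median ratio of 1.38 (quartiles 1.01 and 2.01). Fold enrichment depends on the depth and background of each library, so the ratio compares lists and not amounts of bound protein. The order of the regions was alike, with a Spearman coefficient of 0.761 across the 435 regions and 0.742 across the 193 of wt-HA rank 1 to 200. Past rank 200 it was 0.413 across 242 regions, where wt-HA values span only 1.99 to 5.78. These coefficients describe regions of the same libraries and carry no test. The first 100 wt-HA regions had a median ratio of 1.17, and those past rank 200 a median of 1.44.

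The kept regions whose place in the lists differed most are given by percentile, since the lists differ in length. The median percentile of kept regions was 96.4 in Δ42-HA and 59.0 in wt-HA, so that an upward shift is the rule in the longer list. The largest upward shift was at a promoter in pericentromeric 3L shared by ND-MLRQ, a subunit gene of mitochondrial complex I, and a transcript without a symbol. Its fold enrichment was 20.0 (rank 114) in Δ42-HA and 2.21 (rank 535) in wt-HA flies, with summits 1125 bp apart, so the signal was not centred on the same base. Adf1, a MADF transcription factor gene, followed with 12.7 in Δ42-HA and 2.29 in wt-HA flies and summits 26 bp apart. Akap200, fl(2)d and the homeodomain gene onecut on chromosome 4 had 4.27 to 7.24 in Δ42-HA and 2.19 to 2.32 in wt-HA flies, and the summits at fl(2)d were 697 bp apart. In the other direction, a region in the 3′ UTR of exu, a gene for localizing maternal mRNA, near Fem-1, had 2.24 (rank 6156) in Δ42-HA and 14.1 (rank 120) in wt-HA flies, with summits 866 bp apart. Muted, CG13585, the promoter of lncRNA:CR46075 and jing, and the autophagy protease gene Atg4b had 2.30 to 2.63 in Δ42-HA and 4.17 to 6.12 in wt-HA flies. Their summits were 1487 bp apart at Muted, 654 bp at Atg4b and 168 bp at lncRNA:CR46075, so these overlaps need not be the same site.

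Kept regions were wider in the Δ42-HA list. The Δ42-HA region was the wider one at 334 of 435 kept regions (76.8%), with a median width ratio of 1.49 (quartiles 1.03 and 2.48). The median width was 1087 bp in Δ42-HA and 668 bp in wt-HA flies. The ratio was 1.24 at the 301 euchromatic regions (897 bp in Δ42-HA, 619 bp in wt-HA), 1.96 at the 38 of chromosome 4 (1323 and 579 bp in the same order) and 2.11 at the 96 of heterochromatin (2194 and 946 bp). The fold enrichment ratio was also lowest in euchromatin, with medians of 1.26 there, 1.81 in heterochromatin and 1.95 on chromosome 4. Width and fold enrichment both depend on library depth, which the lists do not give. Among the kept regions with at least 50% reciprocal overlap the median ratio was 1.18, since that limit removes pairs of unequal width.

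**Figure D3:**
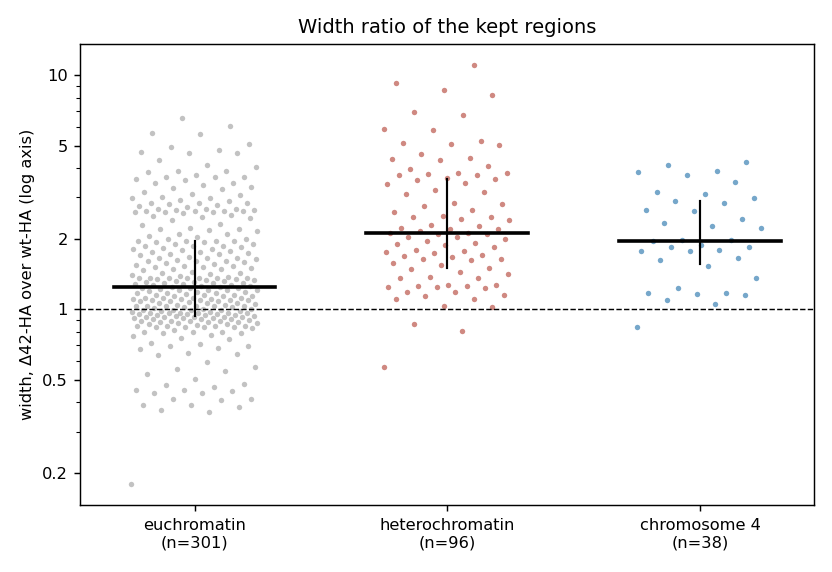
Width of each kept region in Δ42-HA over its width in wt-HA (log axis), with 1 point a region, for 301 euchromatic, 96 heterochromatic and 38 chromosome 4 regions. Thick lines mark the medians (1.24, 2.11 and 1.96), thin lines the quartiles, and the dashed line equal widths.

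By the 1 bp rule, pericentromeric heterochromatin and chromosome 4 retained nearly all of their wt-HA regions. In heterochromatin, 96 of 102 wt-HA regions were kept (94.1%, 87.8 to 97.3), and on chromosome 4, 38 of 40 (95%, 83.5 to 98.6). In euchromatin 301 of 409 were kept (73.6%, 69.1 to 77.6). These groups also differed in strength, and the kept share fell with wt-HA rank, as given above. The median wt-HA fold enrichment of kept regions was 12.3 in heterochromatin, 7.30 on chromosome 4 and 3.60 in euchromatin. Heterochromatin held 50.0% of wt-HA ranks 1 to 50, beside 18.4% of all wt-HA regions. The part of strength in the unequal kept shares was not tested. Under 50% reciprocal overlap, which pairs of unequal width fail, the heterochromatic share was 42.2%. Seen from the other list, 82 of 245 heterochromatic Δ42-HA regions (33.5%), 37 of 76 on chromosome 4 (48.7%) and 302 of 5871 in euchromatin (5.14%) were shared. New regions were thus mostly euchromatic, with 163 of 5771 (2.82%) in heterochromatin, against 19.5% of the shared regions. Annotated transposable elements overlapped 1.42% of new and 12.8% of shared Δ42-HA regions.

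Genes that lie in pericentromeric heterochromatin need its chromatin state for normal expression, and many are housekeeping genes. Of 19 such genes examined, 19 had a kept region at their promoter, where 515 of all 18277 annotated genes (2.82%) did. The list was drawn up with the heterochromatic regions already known, so its count is a description. The MAP kinase gene rl had a fold enrichment of 114 in Δ42-HA and 60.4 in wt-HA flies. RpL15 had 87.0 in Δ42-HA and 64.1 in wt-HA flies, and RpL38 58.8 in Δ42-HA and 20.5 in wt-HA flies. The classic variegating gene lt was lower in both lists, at 6.46 in Δ42-HA and 5.21 in wt-HA flies.

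The 5 highest of the 6 heterochromatic lost regions lay away from promoters. They were in an intron of CG12061 (7.04 in wt-HA), in an intron of l(2)41Ab (3.31), and between genes near CG10417 (3.10), CR42530 (3.10) and Slmap (3.06). The promoters of CG10417 and Slmap themselves were kept, with 56.6 in Δ42-HA and 61.3 in wt-HA flies at CG10417 and 31.1 in Δ42-HA and 53.0 in wt-HA flies at Slmap. On chromosome 4 the lost regions were intergenic, near RhoGAP102A (4.53) and Cadps (2.56). The 2 wt-HA regions on Y, near Su(Ste):CR42407 and FDY (2.71 each), were lost, and 0 of 6192 Δ42-HA regions lay on Y, which allows a share of up to 0.0484%. The sex of the flies in each library is not given in the sources used here.

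By chromosome, the kept share was 90.6% on X (48 of 53), 84.4% on 2R, 73.8% on 3R, 72.9% on 2L and 71.1% on 3L, with intervals that overlap between neighbours in this order. The 2R arm holds a long heterochromatic stretch.

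Lost regions were of 2 kinds when set against the anti-Mzfp1 list of the same wt-HA flies. That antibody precipitates the tagged and the untagged protein. It held 60 of the 118 lost regions (50.8%, 41.9 to 59.7) and 381 of the 435 kept (87.6%). Of the 60, 47 overlapped a promoter window (78.3%, 66.4 to 86.9), and 39 (65.0%) were in an untagged list. Of the other 58, 9 overlapped a promoter window (15.5%, 8.38 to 26.9), 3 were in an untagged list, and 22 (37.9%) had their summit in a coding exon, against 4 (6.67%) of the 60. Their summits were also richer in GC, with a median of 54.0% over 201 bp against 42.5% for the 60. The 58 were weaker too, with a median fold enrichment of 2.52 (median rank 440) against 3.10 (median rank 324) for the 60. The part of this strength in the other differences was not tested. The untagged lists were made with anti-Mzfp1 antibodies, as was the list that made this split, so their contrast is in part built in. The kept share rests on which wt-HA regions are counted: of the wt-HA regions that the anti-Mzfp1 list of the same flies held, 86.4% were kept, and of the others 48.2% (54 of 112).

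In the Δ42-HA flies, anti-Mzfp1 marked a smaller share of the lost than of the kept regions. It held 45 of the 118 lost (38.1%, 29.9 to 47.1) and 356 of the 435 kept (81.8%), beside 72.5% of all wt-HA regions. Among regions in the wt-HA anti-Mzfp1 list, it held 43 of the 60 lost (71.7%) and 351 of the 381 kept. In these flies anti-Mzfp1 also precipitates the untagged protein from the remaining normal gene. The study raised anti-Mzfp1 against a stretch of the protein that includes the part missing from Δ42-HA. Whether this lowers its recovery of Δ42-HA, and which form was bound at the 43 regions, was not tested. These 43 regions were in both anti-Mzfp1 lists of transgenic flies and in wt-HA with anti-HA, and, of the 4 lists of these flies, absent from Δ42-HA with anti-HA alone.

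The highest lost regions lay mostly at or near gene starts. Utx, a demethylase of the Polycomb mark H3K27me3, had a wt-HA fold enrichment of 10.6 (rank 142), and the Δ42-HA region closest to it was 12789 bp away. Ssl2 (8.62), the promoter of Pld3 and Coq3 (8.05) and the promoter of CG8441 and clu (7.30) followed. In the CG8441 case a Δ42-HA region began 39 bp away, and at pim (6.14), the securin gene, 185 bp away. Such pairs are lost by the 1 bp rule but are near neighbours. Cp18 (6.04) encodes an eggshell protein, and the region lay 352 bp from its start with no Δ42-HA region within 25511 bp. After CG12061, described above, the rest were tun (5.43), Stat92E, the transcription factor of the JAK-STAT pathway (4.91), and the start of sina within Rh4 (4.84). Of these 10 regions, 9 lay in euchromatin and all 10 were in the wt-HA anti-Mzfp1 list.

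A dense stretch shows the 3 sets side by side. It starts at a 100 kb bin with 10 wt-HA regions, the most of any bin, and was chosen for that. A bin on 2R (24000001 to 24100000) tied with it, with 9 of its 10 wt-HA regions kept, against 7 of 10 in the 2L bin. From 10200001 to 10500000 on 2L there were 40 Δ42-HA regions, of which 20 were shared, and 25 wt-HA regions, of which 20 were kept. The kept ones included promoters of housekeeping genes: Prosalpha6, a proteasome subunit (21.7 in Δ42-HA, 48.3 in wt-HA), me31B, an RNA helicase (36.8 in Δ42-HA, 32.5 in wt-HA), and RpS27A, which encodes a ribosomal protein fused to ubiquitin (41.2 in Δ42-HA, 36.1 in wt-HA). The 5 lost ones lay at CG31717 (3.04), Mulk (3.53), Utx (10.6), GATAd (4.14) and pim (6.14), and all 5 were in the anti-Mzfp1 list of the Δ42-HA flies. Among the 20 new ones, 17 were in no untagged list, and these had a fold enrichment of 2.37 to 5.64, mostly in coding exons such as those of RpL7, Cand1 and Cnot4.

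New regions were of 2 kinds, told apart by the lists of untagged flies: y1w1118 adults with anti-Mzfp1 and y1w1118 embryos with the rat or rabbit antibody. Of the 5771 new regions, 416 (7.21%, 6.57 to 7.90) were in at least 1 of these lists and 5355 in none, whereas 302 of the 421 shared regions (71.7%, 67.3 to 75.8) were. Of the 1666 y1w1118 adult regions, 299 were in both anti-HA lists, 343 in the Δ42-HA list alone, 37 in the wt-HA list alone and 987 in neither. The Δ42-HA list is the longer one, which bears on these counts.

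The 416 new regions with an untagged counterpart mostly reached a promoter window, with a minority of summits inside it. A promoter window was overlapped by 356 (85.6%, 81.9 to 88.6), against 81.9% of the shared regions. The summit was in a promoter in 37.0% (32.5 to 41.8), against 65.6% (60.9 to 69.9) of the shared regions, and in a coding exon in 29.3%, against 10.9%. The median distance of the summit to a gene start was 260 bp, against 82 bp. The anti-Mzfp1 list of Δ42-HA flies held 354 (85.1%) and that of wt-HA flies 322 (77.4%). These shares are in part built into the set, since the untagged lists that define it were also made with anti-Mzfp1 antibodies. Their fold enrichment was low, with a median of 3.10 (quartiles 2.73 and 3.71), against 6.88 for the shared regions. None of the 416 lay on chromosome 4 and 10 (2.40%) lay in heterochromatin, against 19.5% of the shared regions. The highest lay at bigmax, which encodes a partner of the sugar sensor Mondo (12.3), at the promoter of Idh3a and CoRest (8.38), at Der-1, a gene of endoplasmic reticulum protein degradation (7.74), and at CG3847 (7.63). CG2765 and Mnt, a repressor that pairs with Max (7.22 each), CG34348 and Kap3 (7.09), TfIIA-S, a subunit of a general transcription factor (6.52), unk (6.30) and the shared promoter of ca and the kinesin gene ncd (5.64) followed. Of these 10 regions, all were in the anti-Mzfp1 list of Δ42-HA flies and 9 in that of wt-HA flies.

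The 5355 new regions outside all untagged lists lay mainly inside genes. The summit was in a coding exon in 2249 (42%, 40.7 to 43.3), in an intron in 1420 (26.5%), between genes in 606 (11.3%) and in a promoter in 528 (9.86%). Among shared Δ42-HA regions 10.9% of summits were in a coding exon and 65.6% in a promoter. A promoter window was overlapped by 23.9% of these new regions, and by 28.4% of all 5771. Windows of genes on both strands were overlapped by 2.07%, against 28.3% of the shared regions. The anti-Mzfp1 list of the same Δ42-HA flies held 136 of the 5355 (2.54%, 2.15 to 3.00) and that of wt-HA flies 123 (2.30%). These 5355 regions were thus listed by anti-HA and, for 96.3% of them, by neither anti-Mzfp1 list of transgenic flies. The untagged lists that define this set were also made with anti-Mzfp1 antibodies. Absence from further anti-Mzfp1 lists is therefore in part built into the set and is no separate evidence. The antibody differs between the anti-HA and anti-Mzfp1 lists, and the stretch that anti-Mzfp1 was raised against includes the part missing from Δ42-HA. The role of the antibody was not tested. For its anti-HA comparison of sites enriched in single variants, the study used only sites also found in wt-HA, y1w1118 adults or embryos. That choice leaves these 5355 regions out.

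**Figure D4:**
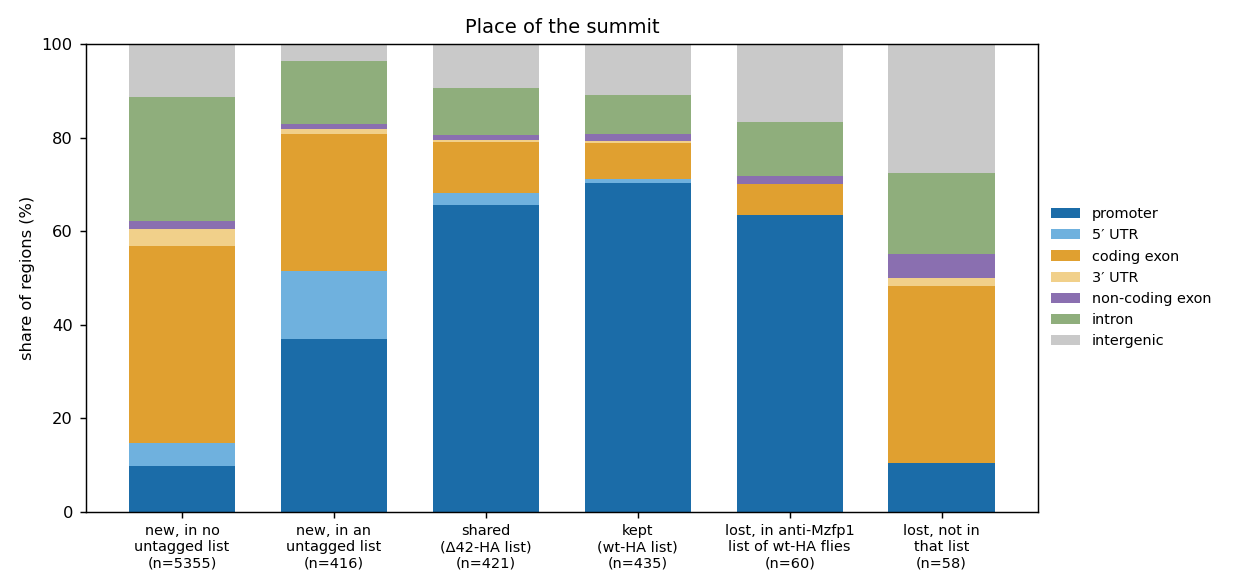
Place of the summit (% of regions) for new regions in no untagged list, new regions in an untagged list, shared Δ42-HA regions, kept wt-HA regions, and lost regions inside and outside the anti-Mzfp1 list of wt-HA flies. Promoter means within 200 bp of a transcription start and takes precedence; coding exons hold 42% of the first set and 7.82% of the kept set.

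Coding exon summits were rare among the strongest Δ42-HA regions and frequent from rank 554 on. They made up 2.0% of ranks 1 to 100, 0% of ranks 101 to 200, 24.1% of ranks 201 to 553 and 37.1 to 42.4% of the bins after that. Promoter windows went the other way, with 97.0% at ranks 1 to 100 and 25.8% past rank 4000. At equal list length 46.4% (40.6 to 52.3) of the 278 new regions overlapped a promoter window, 15.8% were in an untagged list and 29.9% had their summit in a coding exon. In the wt-HA list coding exon summits made up 28.1% past rank 400 and 0% of ranks 1 to 150.

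The 2 inputs of each list were compared within the sets. Each line of a list gives the −log10 p of both inputs of the irreproducible discovery rate (IDR) procedure. Across regions their Spearman coefficient was 0.593 for the 5355 new regions in no untagged list, 0.746 for the 416 in one and 0.984 for the 421 shared regions, against 0.980 for the 435 kept and 0.905 for the 118 lost wt-HA regions. The highest possible IDR score was reached by 8.87% of new and 73.4% of shared Δ42-HA regions, and by 48.7% of kept and 8.47% of lost wt-HA regions. The coefficients move with the range of −log10 p in each set, and they are given as descriptions. Both lists stop at an IDR of 0.01, the study's limit for pseudoreplicates, and it is not known whether the inputs were the 2 libraries or parts of a pool, so the coefficients need not measure agreement between libraries.

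New regions were numerous in some long genes. The summits of new regions lay in 3325 genes, of which 2316 held 1 and 151 held 5 or more. These genes had a median length of 5838 bp, against 2164.5 bp for all protein-coding genes. A longer gene is more likely to hold a region, which by itself makes these lengths unequal. The genes with the most new regions, picked after the counts were seen, were Eip74EF (21) and Eip75B (20), both early genes of the ecdysone response, Tlk, a chromatin kinase (18), Glut4EF (17) and mamo (17). Smr, a co-repressor of nuclear receptors (16), and ftz-f1 (14), fru (14) and psq (14), which encode transcription factors, were also among them, as were CG46467 (16), lncRNA:CR44357 (15), Hr4 (13), Mur2B (13), CG1677 (12) and mam (12). Per 10 kb of gene these 15 genes held 0.627 to 3.46 new regions. CG1677 and lncRNA:CR44357 overlap, so a region can count for both. Eip74EF held 21 new regions in 60654 bp and 0 wt-HA regions.

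The highest new regions in no untagged list were spread over introns, promoters and intergenic sequence. The first (19.4, rank 119) was in an intron of CG1677 at 6807 bp from the start of brk, a repressor of Dpp signalling, and Dus2, a tRNA dihydrouridine synthase, followed (19.2). The next were near lncRNA:CR45737 (14.5) and CG6106 (11.9), in an intron of dar1 (11.4) and at pcx (10.7). The last 4 were the promoter shared by CG11699 and Polr2A, the largest subunit of RNA polymerase II (10.1), an intron of CG5953 (9.99), Akt, the insulin pathway kinase (9.70), and lncRNA:CR43242 in heterochromatin (9.48). Of these 10, Dus2, Polr2A and Akt were in the wt-HA anti-Mzfp1 list, Akt also in that of Δ42-HA flies, and the other 7 were in neither anti-Mzfp1 list. In coding exons the highest lay in Socs36E, a brake on cytokine signalling (7.29), ftz-f1 (7.02), pkaap (6.87), CG34220 (6.52) and cpo (6.27).

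The gene CG1677 holds the strongest Δ42-HA region and a cluster of new ones. It spans 124709 bp and had 14 Δ42-HA regions, of which 2 were shared, and 2 wt-HA regions, both kept. The kept pair was the CG1677 promoter and the unc-119 gene nested in it (3.98 in Δ42-HA, 3.42 in wt-HA). The 12 new regions had a fold enrichment of 2.61 to 19.4, and 6 of them lay nearest to brk.

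Words of 8 letters around the summits differed between the sets as well. Each word was searched on both strands in 201 bp around the summit, and in windows 1000 bp to either side. TATCGATA, the site that DREF, a factor of proliferation and housekeeping genes, is known to bind, was present at 0.411% of new regions in no untagged list, 6.49% of those in one and 8.79% of the shared Δ42-HA regions. In wt-HA it was present at 8.05% of kept (1.15% in the flanks) and 3.39% of lost regions. It was found at 21.4% of y1w1118 adult regions and in 5.44% of 201 bp windows at all 23676 transcription starts. The word was chosen as the core of a motif that earlier results of these data gave, so these shares are descriptions.

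The words most over-represented at kept summits relative to their flanks were AGTGTGAC (8.05% of summits, 0.230% of flanks), GGTCACAC (7.36%, 0.345%) and TATCTTGA (6.90%, 0.345%). The reverse complement of AGTGTGAC shares 7 letters with GGTCACAC, and both are parts of the core promoter motif that M1BP binds. Since these 3 words were picked on the kept regions, their share there is a description. AGTGTGAC was in 4.08% of all promoter windows, GGTCACAC in 4.74% and TATCTTGA in 0.566%. TATCTTGA was in 18% of the first 100 wt-HA regions, RpL23A among them, in 1.65% of kept regions past rank 200, and in 2.10% of y1w1118 adult regions. It was in 0 of 118 lost regions, which allows a share of up to 2.54%. AGTGTGAC was in 5 of the 60 lost regions that the wt-HA anti-Mzfp1 list held, one of them the Dpm3 site printed above.

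A minority of the new regions in no untagged list carried triplet words. The leading ones were ACCACCAC (10.4% of summits, 1.49% of flanks), CACCACCA (12.7%, 2.10%) and GCACCACC (8.46%, 1.38%). The first pair are shifts of one run of the triplet ACC, and the third has a G before such a run. Since they were picked on these regions, their share there is a description. Any of them was present at 904 of 5355 (16.9%, 15.9 to 17.9), and in 1.86% of all promoter windows. The share was 24.5% with the summit in a coding exon, where triplet runs can encode repeated amino acids, and 9.93% in introns, 10.8% in promoters and 11.7% between genes. It was 8.89% for new regions in an untagged list and 5.23% for shared Δ42-HA regions, and 4.14% for kept and 3.39% for lost wt-HA regions.

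**Figure D5:**
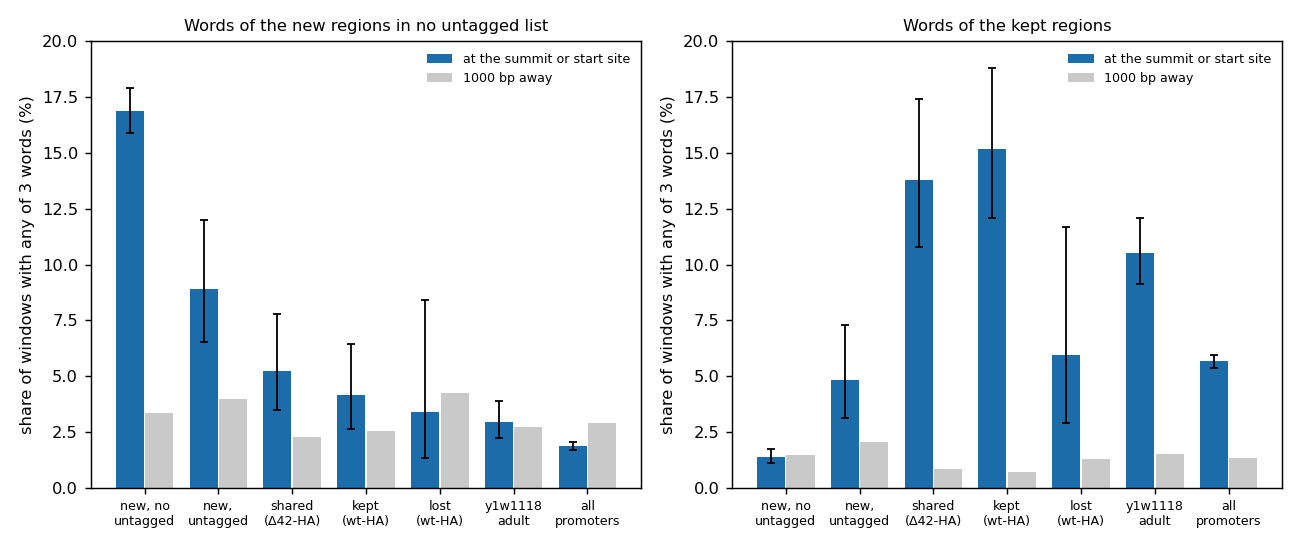
Share of 201 bp windows (%) with any of 3 words on either strand, at the summit or start site (blue, 95% Wilson intervals) and 1000 bp away (grey). The left panel uses the words picked on new regions in no untagged list (16.9% there, 1.86% of promoter windows) and the right panel those picked on kept regions (15.2% there, 1.38% of new regions in no untagged list).

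New summits were GC-rich. The median GC content over 201 bp was 54.7% for new regions in no untagged list, against 43.3% in their flanks, and 52.7% for new regions in an untagged list. It was 42.8% for shared Δ42-HA regions, and 41.3% for kept and 47.3% for lost wt-HA regions, with 42.3% at all promoters. Within kept regions it was 32.3% in heterochromatin and 46.3% in euchromatin. New regions in introns (51.2%) and between genes (52.2%) also lay above their flanks (41.8% in both cases), so the difference was not limited to coding sequence. PCR and chromatin shearing favour some GC contents, and their part in the new regions was not tested.

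Gene groups differed in how their promoters were distributed over the sets. Among all 18277 genes, 515 (2.82%) had a kept region in their promoter window, 79 (0.432%) a lost one and 1801 (9.85%) only new ones. Of 92 genes for cytoplasmic ribosomal proteins, 17 (18.5%) had a kept, 0 a lost and 24 (26.1%) a new region, with RpL10 at 55.4 in Δ42-HA and 44.7 in wt-HA flies and RpL32 at 39.5 in Δ42-HA and 10.8 in wt-HA flies. Of 73 genes for mitochondrial ribosomal proteins, 3 had a kept region (mRpS30, mRpS5 and mRpS7), 2 a lost one (mRpL13 at 3.43 and mRpL47 at 3.01 in wt-HA) and 6 a new one. The new share was thus 26.1% for cytoplasmic and 8.22% for mitochondrial ribosomal protein genes, beside 9.85% for all genes.

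Of 18 genes for architectural and insulator proteins, 4 (22.2%) had a kept region and 3 (16.7%) a new one. Among all genes 2.82% had a kept region and 9.85% only new ones. The kept ones were pzg, which encodes the Z4 protein of promoters and interbands (31.7 in Δ42-HA, 20.7 in wt-HA), pita (3.45 in Δ42-HA, 2.24 in wt-HA), Clamp (5.41 in Δ42-HA, 2.88 in wt-HA) and CG1603 itself. BEAF-32 (3.16), ZIPIC (2.59) and Opbp (2.61) had new regions, and the promoter of Cp190 had none in either list. Of 19 Polycomb and trithorax group genes, Pc and pho, which encodes a DNA-binding recruiter of Polycomb (17.9 in Δ42-HA, 7.22 in wt-HA), were kept (10.5%). New regions lay at Psc, Su(z)2, esc, Su(z)12, phol and z (2.51 to 4.78), which is 31.6% of the 19. Of the 8 homeotic genes, abd-A (3.88) and Abd-B (3.31) had new regions (25.0%). With so few genes these shares are descriptions.

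Of all genes, 15882 (86.9%) had no region of either list in their promoter window, and some gene groups are set beside this share. Of 17 muscle structure genes, Tm1 was kept (3.82 in Δ42-HA, 4.47 in wt-HA) and 16 had no region in their promoter window. One of these, wupA, held the new intron region printed above. Of 13 yolk and eggshell genes, Cp18 was lost, Vm26Ab (4.04) and Vm34Ca (2.82) were new, and 10 had none. Of 15 heat shock genes, Hsp26 (2.94) and Hsp68 (2.43) were new and 13 had none. Beside the 9.85% of all genes, new regions were in the promoter window of 15.4% of yolk and eggshell, 13.3% of heat shock and 0% of muscle genes.

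The genes whose parts are in the transgene need a separate look. A region in the coding exons of CG1603 had a fold enrichment of 7.73 (rank 223) in Δ42-HA and 2.65 (rank 407) in wt-HA flies, and no untagged list held one. Near Ubi-p63E, whose promoter drives the transgene, a region had 4.31 in Δ42-HA and 2.68 in wt-HA flies. In both lists its summit lay in the promoter window of Sc2, the gene with the nearest start. Only the wt-HA region was counted in the promoter window of Ubi-p63E itself. At yellow there was 1 Δ42-HA region, in a coding exon (3.03), and 3 wt-HA regions, of which the coding exon one (3.10) was kept and those at the promoter (3.06) and upstream of it (2.85) were lost. Sequence of the inserted copy cannot be told apart from that of the normal gene in these lists, and the lists do not show the deletion itself. Without regions within 2000 bp of these genes the kept share was 78.8%.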

How the data were processed

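ChIP-seq peak lists were analysed, 1 for each adult group of 2 libraries and 2 of embryos. Per the labels and the study's methods, the authors used cutadapt and sickle for trimming, aligned reads to dm6 with Bowtie2, version 2, removed duplicates and blacklisted regions, called peaks with MACS2 at p 0.01 against an adult control and kept those passing the IDR procedure (0.05 for replicates, 0.01 for pseudoreplicates). The controls were preimmune ones, described as corresponding to each sample, and adult ones were made with anti-HA and with rat antibodies. The embryo lists, 1 library each with rat or rabbit antibody, came from single-end reads aligned with Bowtie. They were called with MACS2 at p 1e-05 without IDR. The depth per library is unknown. The deposited lists hold the fold enrichment, a ratio to control, beside p-values on a −log10 scale for the region and for each IDR input. A deposited score gives the IDR on a −log10 scale. In both anti-HA lists the deposited −log10 p equals that of the first IDR input in 100% of lines. Which library or pool that input was, and whether the fold enrichment is from it too, is not known.

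From these, overlaps of at least 1 bp were computed with Python 3.11.15, pandas 2.3.3 and numpy 2.4.6, with 95% Wilson intervals from counts. Overlap and annotation steps were tested on simulated lists. Summits were placed with Ensembl release 115 annotation, in the order promoter, coding exon, 5′ UTR, 3′ UTR, non-coding exon, intron, intergenic. Heterochromatin bounds were those of the study. No test was run, since each group has 1 list. Named were the 10 highest kept, lost and new regions with and without an untagged counterpart, the 5 highest in heterochromatin (lost) and in coding exons (new), the 5 largest rank shifts in each direction, and members of gene lists. Members, lists and words were chosen with earlier results of these data known. Lists of other deletion variants were not used. Alternatives varied the overlap rule, list length, promoter window, limits and word window.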

Additional observations from a re-analysis of the deposited data

How the results depend on the processing

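No paired analysis was possible because each group has 1 peak list made from both of its libraries, and for the same reason no replicate could be left out. The kept share of 78.7% was 48.6% under 50% reciprocal overlap, 66.2% with summits within 200 bp and 52.8% at equal list lengths. It was 82.1% when a Δ42-HA region within 1000 bp was enough, and 86.4% among wt-HA regions that the anti-Mzfp1 list of the same flies held (both chosen after seeing the data). New regions numbered 278 at equal lengths. Their promoter share of 28.4% was 38.2% with a 500 bp window, 11.8% for summits and 46.4% at equal lengths. Their untagged share of 7.21% was 6.38% with y1w1118 adults alone, 3.22% under reciprocal overlap and 15.8% at equal lengths. The heterochromatic kept share of 94.1% was 42.2% under reciprocal overlap and 91.2% at equal lengths. The median width ratio of 1.49 was 1.18 under reciprocal overlap and 1.73 at equal lengths. TATCGATA at kept summits was 4.60% within 50 bp, a window chosen after seeing the data and shorter by construction. The Spearman coefficient of 0.761 was 0.755 by −log10 p. Limits of −log10 p of at least 5 or IDR of 0.01 could remove no region, since both deposited lists already stop at or above them, and so say nothing of stability. In all, 16 values moved beyond their 95% interval (counts beyond 1.5 times) and 17 did not, 7 of these under limits that removed nothing.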
